A study of Mus musculus with 130 samples.

Results

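The 50 control mouse embryos of the series were described one by one at the 2-cell stage, the stage after the first cleavage. They are 50 of 130 samples, chosen by the treatment that their labels give and by no measured value. The study tested SR1848, a small molecule described as an inhibitor of the nuclear receptor Nr5a2, against its solvent. Zygotes of the hybrid strain B6129F1 were collected 5 h after fertilization and moved at 6 h into KSOM medium with 0.1% DMSO, without an oil overlay, and the 50 controls saw no inhibitor. Each sample is polyadenylated RNA of 1 whole embryo, amplified with an oligo dT primer, so embryo-to-embryo spread includes the amplification. The design text lists 56 controls, and 6 were not analysed here.

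In the mouse the 2-cell stage is where the embryo's own genome is first strongly transcribed. Until then the embryo lives on mRNA that the oocyte stored, and that stock is deadenylated and degraded while the first embryonic genes come on. Nr5a2, Obox, Klf and Dppa proteins are among the factors linked to this activation, and Zscan4, Tcstv, Usp17l and Tdpoz genes are among its short-lived products. Transcription from the paternal X chromosome starts with the rest of the genome, before it is silenced in female embryos.

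The libraries held 3140419 to 8360748 estimated counts on named genes (median 5423871), and 14784 to 16782 genes had at least 1 count in an embryo. In total count and detected genes, 0 embryos fell short of the median by over 3 median absolute deviations. The least different of 1225 pairs of libraries still had a chi-square of 18.6 per gene, against a median of 52.6, so no library was a repeat of another. Of 12 markers of the 2-cell embryo 11 averaged at least 1 CPM (counts scaled to the same total in every embryo), with a summed level of 448 to 1685 CPM, and all 7 oocyte markers did. Of 14 cumulus and granulosa markers 4 averaged at least 1 CPM and only Amhr2 passed 10 CPM (48.97 ± 15.6, SD, n = 50), with a summed level of 30.2 to 105 CPM; Inha was at 0 in all embryos. Of 8 sperm markers only Ldhc (15.8 ± 8.76 CPM) passed 1 CPM, and Tnp2 and Smcp were at 0 throughout. The 5 blood markers summed to 3.11 to 53.7 CPM, led by Hba-a1 (mean 15.01) and Cd68 (3.39), with Hbb-bs at 0, and the blastocyst markers to 3.33 to 40.1 CPM. In longer written lists, 2 of 14 sperm and 2 of 14 blood markers averaged at least 10 CPM. They were led by Odf2 and Hba-a2, outside the sets above. The median of these 2 genes was 126 CPM for sperm and 23.9 CPM for blood. Over all 14 genes of each list it was 0.315 CPM for sperm and 0.119 CPM for blood.

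The transcriptome of a control embryo was broad. On average 752 genes carried 50% of the counts, the 5 most abundant genes took 6.75 ± 1.41% (SD, n = 50) and the 100 most abundant genes 24.2 ± 3.03%, with a range of 17.4 to 31.7%. A mean of at least 1 CPM was reached by 14134 genes, of at least 10 CPM by 8534, of at least 100 CPM by 2262 and of at least 1000 CPM by 73. At least 1 count was present in all 50 embryos for 9320 genes. An embryo's own 100 most abundant genes included 62 to 92 (median 83) of the 100 that lead the mean, so the ranking at the top was largely shared.

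**Figure D1:**
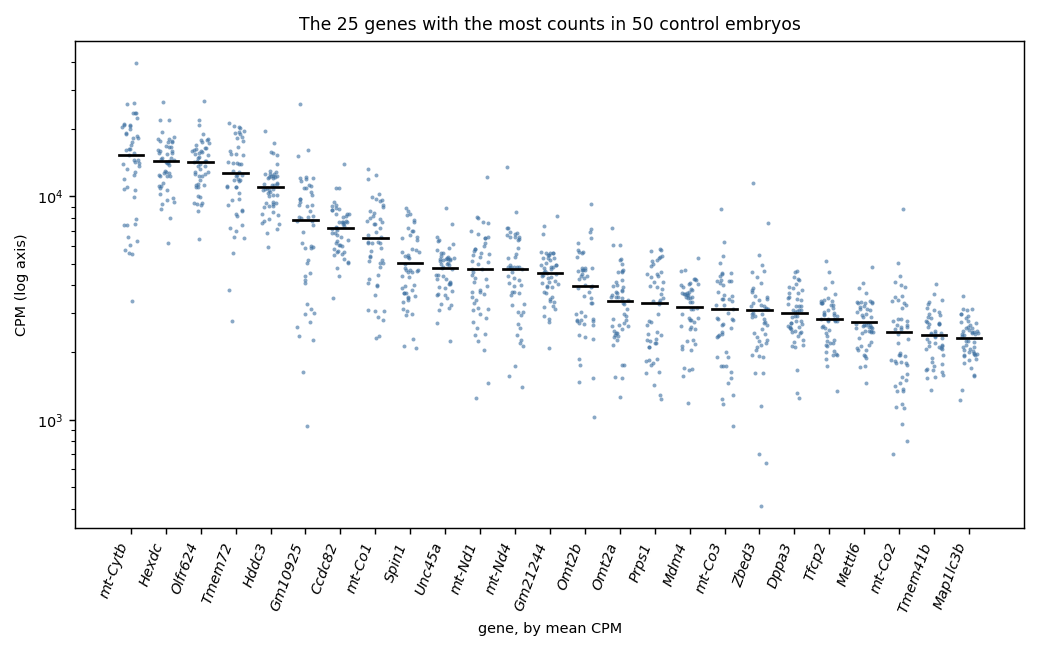
Level in each of the 50 control embryos (points, CPM on a log axis) of the 25 genes with the highest mean (black bars). mt-Cytb runs from 3404 to 39534 CPM, while Map1lc3b, the last of the 25, stays between 1231 and 3595 CPM.

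Transcripts of the mitochondrial genome were among the most abundant. mt-Cytb, which encodes a subunit of respiratory complex III, had 3404, 14906 and 39534 CPM in the lowest, median and highest embryo, a more than 10-fold span (mean 15260 ± 6914). mt-Co1, a subunit of cytochrome oxidase, averaged 6528 ± 2659 CPM, and mt-Nd1 and mt-Nd4, subunits of complex I, averaged 4721 ± 2036 and 4714 ± 2126 CPM. All 13 protein-coding genes of the mitochondrial genome together held 4.61 ± 1.92% of an embryo's counts, with a range of 1.33 to 11.9%.

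Several leading entries need their transcript named, because most of their counts fell on a transcript that is not the known protein-coding one. Hexdc had 14321 ± 3871 CPM, of which 98.2% fell on Hexdc-205, annotated as a processed transcript. Spin1, which encodes a histone reader abundant in oocytes, had 5007 ± 1760 CPM with 97.6% on Spin1-202, also a processed transcript. The counts given to Unc45a (4770 ± 1209 CPM) fell by 99.7% on Gm18310-201, and those given to Fmn1 by 99.8% on Gm13965-201, so these values describe the overlapping predicted genes and not the chaperone or the formin. Olfr624, an olfactory receptor gene by name, had 6455, 14273 and 26802 CPM (lowest, median, highest), and 4 olfactory receptor genes in all averaged at least 100 CPM. Hexdc and Olfr624 moved together, with 26506 and 26802 CPM in embryo 47 and 6200 and 6455 CPM in embryo 10. Hddc3, Ccdc82, Unc45a, Gm21244, Tfcp2 and Mettl6 were also highest in embryo 47 and lowest in embryo 10. Whether these entries share reads was not tested, so they may not be separate abundant genes. Gm21244 (4532 ± 1153 CPM) is annotated on chromosome Y and was present at 2101 CPM or more in every embryo, so its counts cannot stand for the Y chromosome. Gm10925 (7818 ± 4458 CPM) lies on chromosome 1 at 24613974 to 24614651, in a known nuclear copy of mitochondrial DNA, and the division of reads between it and mt-Atp6 is uncertain.

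Known maternal and 2-cell-stage genes followed. Omt2b and Omt2a, oocyte-specific genes that neighbour each other on chromosome 9, averaged 3956 ± 1630 and 3417 ± 1242 CPM. Dppa3, a maternal protein that shields the genome from demethylation, had 1255, 2916 and 4655 CPM (mean 3003 ± 774), and Zbed3, a subcortical maternal complex partner, ranged from 412 to 11408 CPM (mean 3108 ± 1730). Tcl1, a kinase co-activator needed for early cleavage, averaged 1713 ± 805 CPM. Map1lc3b, an autophagosome protein, averaged 2323 ± 487 CPM and was among the steadier of the leading genes. Prps1, an X-linked enzyme of nucleotide synthesis, ranged from 1233 to 5786 CPM.

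The order changed when levels were divided by transcript length, in TPM (counts per length, scaled to a common total), and 18 of the 25 leading genes were shared. Hddc3 then came first with a level of 22381 ± 5820, ahead of mt-Cytb (20917 ± 8803), Gm10925 (17993 ± 9588), mt-Atp8 (14827 ± 7320) and Omt2b (8530 ± 3302). Between genes, only this length-scaled level can be compared. Of all counts, 82.1% lay on protein-coding transcripts and 6.37% on processed transcripts.

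Among 32 regulators linked to genome activation 29 averaged at least 10 CPM. Klf17, an early zinc-finger factor, was the highest of them by counts at 604, 1377 and 1931 CPM (lowest, median, highest). Gabpa had 765 ± 162 CPM, Obox6 619 ± 158, Kdm5b 495 ± 162, Dppa4 494 ± 117 and Dppa2 404 ± 136. Nr5a2 itself, the receptor that the treated arm of the study targets, had 52.9, 105 and 196 CPM and a mean of 107 ± 29.7, rank 2121 among all genes. No control embryo lacked it, and its length-scaled level was 86.1 ± 25.4 TPM. Pou5f1 (26.2 ± 12.3 CPM) and Tfap2c (80.9 ± 28.7) were present in every embryo, while Nanog averaged 4.92 ± 2.33 CPM and Sox2 0.456 ± 0.885.

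Of 33 genes of the 2-cell stage 24 averaged at least 10 CPM. Tmem92 led by counts at 157, 370 and 685 CPM, followed by Sp110 (306 ± 101) and Usp17lb (171 ± 144). The Zscan4 family, nuclear proteins expressed in a burst at this stage, was lower: Zscan4f averaged 53.3 ± 34.7 CPM, Zscan4a 40.3 ± 27.7, Zscan4d 33.7 ± 19.8 and Zscan4c 10.0 ± 8.21. Reads of these 4 close copies may have been divided among them by the counting, so their single values are uncertain. Duxf3, the homeobox factor upstream of many of these genes, averaged 0.735 ± 0.772 CPM and had no count in 17 of 50 embryos.

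The spread between embryos fell with abundance. A smooth trend of the coefficient of variation (CV, the SD over the mean) stood at 0.643 at 10 CPM, 0.355 at 100 CPM and 0.285 at 1000 CPM, where counting alone would give 0.136, 0.0429 and 0.0136. A gene was taken as more variable than its abundance gives at a CV of 1.5 times the trend or more, and as less variable at the trend divided by 1.5 or less. No test attaches to this rule, which ranks genes. Of 8534 genes, 699 (8.19%) were more variable and 268 (3.14%) less variable. Predicted genes and pseudogenes were 23.5% of the more variable genes, against 6.91% of all 8534, and X-linked genes were 8.58% against 3.12%. Among the less variable genes X-linked genes were 0.746%.

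**Figure D2:**
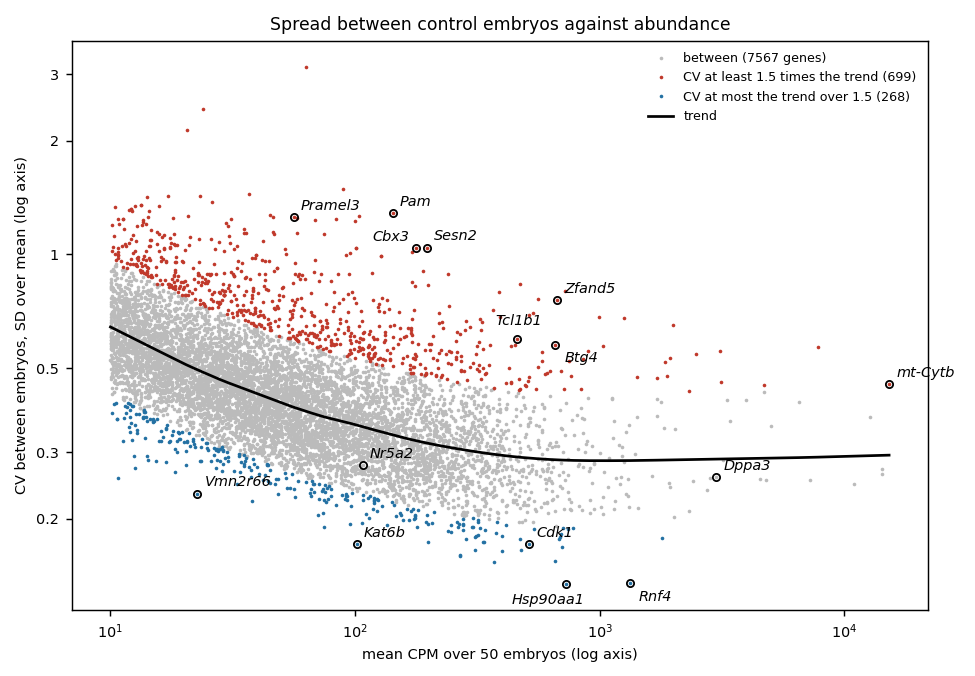
CV between the 50 control embryos against mean CPM (log axes) for 8534 genes, with the trend as a black line. The 699 more variable genes (red) sit above it, with Pam, Sesn2 and Cbx3 high at over 100 CPM, and the 268 less variable genes (blue) sit below it, with Hsp90aa1 and Rnf4 at the lower edge.

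The most variable named genes at 20 CPM or more are given by example. Pam, an enzyme that amidates peptides, had 7.002, 83.7 and 928 CPM (lowest, median, highest), a CV 3.86 times the trend. Sesn2, a stress-induced regulator of mTORC1 and the 1 more variable gene of 18 in the unfolded-protein and integrated stress response list, had 32.96, 153 and 1230 CPM, with the next embryo at 1086, and its CV was 3.29 times the trend. Cbx3, a heterochromatin protein of the HP1 family, had 24.8, 115 and 1031 CPM (3.24 times). Without its highest embryo each was still called, at 3.69, 2.76 and 2.90 times. With a robust CV, based on the median absolute deviation, Sesn2 (1.17), Serinc3 (1.20) and Cbx3 (1.41) were not called, so their spread rests on the embryos at the high end. Lrtm1 (104 ± 131 CPM, 3.59 times), Serinc3 (68.9 ± 85.0 CPM, 3.27 times) and the X-linked Pramel3 (56.2 ± 70.7 CPM, 3.19 times) were also among the 25 most variable.

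Single embryos made some of the largest values. Gm29013 had the highest ratio of all, 8.17, with 0 to 1369 CPM, and it fell to 4.27 without its highest embryo. Olfr373 went from 4.20 to 2.32, and Mff, a mitochondrial fission factor, from 2.88 to 1.96. Obox2, a homeobox gene expressed in oocytes, went from 2.59 to 1.33, because 1 embryo had 293 CPM and the next 98.8. Among all 699 more variable genes, 506 were still called when each gene's highest embryo was left out.

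The least variable genes at 20 CPM or more are given by example. Hsp90aa1, the inducible cytosolic HSP90 chaperone, stayed between 495 and 973 CPM (mean 728 ± 97.9), a CV 0.471 times the trend, although its list of heat shock genes and chaperones had 3 of 18 more variable and 1 less (median 1.11). Rnf4, a SUMO-targeted ubiquitin ligase, averaged 1331 ± 179 CPM. Kat6b, a histone acetyltransferase (101 ± 17.4 CPM), Ube2k, a ubiquitin-conjugating enzyme (370 ± 56.7), Eif1, a start-codon selection factor (268 ± 43.1), Rsl1d1, a nucleolar protein (660 ± 102), and Rpl4, a ribosomal protein (476 ± 78.8), were also among the 25 lowest. Vmn2r66, a pheromone receptor gene by name, was as steady for its level (22.6 ± 5.27 CPM, 0.470 times). Nr5a2 was on the steady side of the trend at 0.790 times but did not pass the rule.

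**Figure D3:**
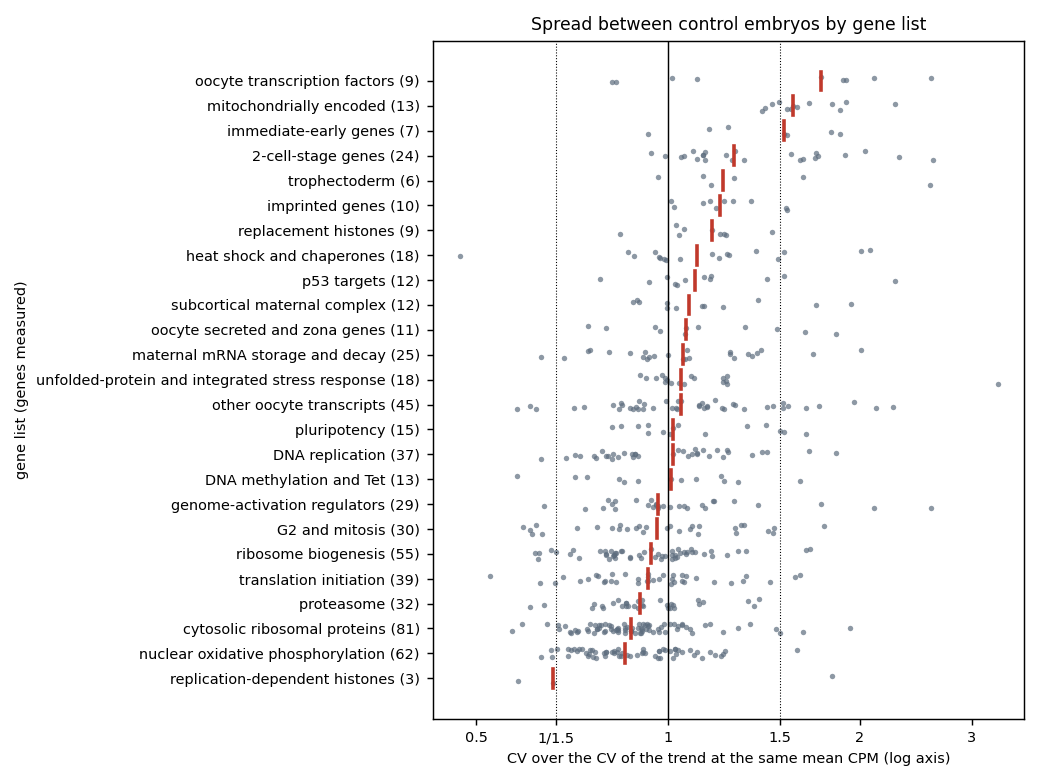
CV over the trend at the same mean for the genes of 25 lists (points, log axis), with the list median in red and the 1.5-fold limits dotted. Oocyte transcription factors and mitochondrially encoded genes lie highest, while ribosomal proteins and nuclear oxidative phosphorylation genes lie below 1.

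Gene lists differed in their spread for their abundance, and 17 of the 25 lists with at least 3 measured genes had a median above the trend, where the median of all genes was 0.996. The counts that follow stand against 8.19% of all genes more variable and 3.14% less variable. Of the 13 mitochondrially encoded genes 9 were more variable and none less (median 1.57). The most variable of them, mt-Atp6, had 9600 CPM in 1 embryo and 3248 in the next, and went from 2.28 to 1.44 times the trend without that embryo. Of 24 measured 2-cell-stage genes 10 were more variable and none less (median 1.27), among them Usp17lb (2.61), Gm6763 (2.31), Eif1ad7 (2.04), Usp17lc (1.89) and Zfp352 (1.72), while Tmem92 lay on the trend at 0.991. Of 9 oocyte transcription factors 5 were more variable and none less (median 1.74), namely Obox2, Obox5, Obox1, Taf4b and Gtf2a1. Of 7 measured immediate-early genes 4 were more variable and none less: Dusp6, Dusp1, Ier3 and Btg2.

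Regulators of genome activation were close to all genes, with 3 of 29 more variable and 1 less (median 0.966). The 3 were Obox1, Obox2 and Obox5, and the 1 was Ctcf, the insulator protein, at 92.8 ± 21.3 CPM. Klf17 (0.807), Dppa4 (0.818) and Gabpa (0.741) lay below the trend without passing the rule. Genes of mRNA storage and decay, with 2 of 25 above and 1 below (median 1.06), were near the shares over all genes. Btg4, the adaptor that brings the CCR4-NOT deadenylase to maternal mRNA, had 196, 548 and 1803 CPM and a CV 2.01 times the trend. Its partner Cnot8 was steady at 502 ± 109 CPM (0.749).

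Nuclear genes of protein synthesis, protein breakdown and respiration lay mostly below the trend. Of 81 cytosolic ribosomal protein genes 18 lay above the trend (median 0.877), of 62 nuclear oxidative phosphorylation genes 17 did (median 0.855), and of 32 proteasome genes 11 did (median 0.905). Few of them passed the rule either way, with 3, 1 and 0 more variable and 3, 3 and 2 less variable. In the G2 and mitosis list 5 of 30 genes were less variable and 1 more: Ccnb1, Ccnb2, Cdk1, Birc5 and Bub1 on the steady side and Nek2, a centrosomal kinase, on the other. Cdk1, the mitotic kinase, stayed between 353 and 760 CPM (mean 513 ± 87.8) and its partner Ccnb1 averaged 1799 ± 319 CPM, while Ccna2 had 619 to 3342 CPM (1.47 times the trend). Replication-dependent histone genes, whose mRNA has no poly(A) tail in most cells, averaged at least 10 CPM for 3 of 63 genes.

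Genes that vary together were sought among the 500 genes with the highest CV over trend, by Spearman's rho across the 50 embryos. Any 2 of the 8534 genes had a median rho of 0.0105, with 90% of pairs between -0.307 and 0.335, and 0.647% of pairs at 0.5 or more. Average linkage at a rho of 0.5 gave 12 groups of at least 8 genes, which held 171 of the 500 genes. The groups were built from these values, so their correlations describe them and are not tested. They are taken here by content: X-linked genes, sets around the Tcl1b and Obox genes and around Tcl1 and Btg4, a set around Pam, sets that contrast among themselves, and predicted genes that include copies.

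**Figure D4:**
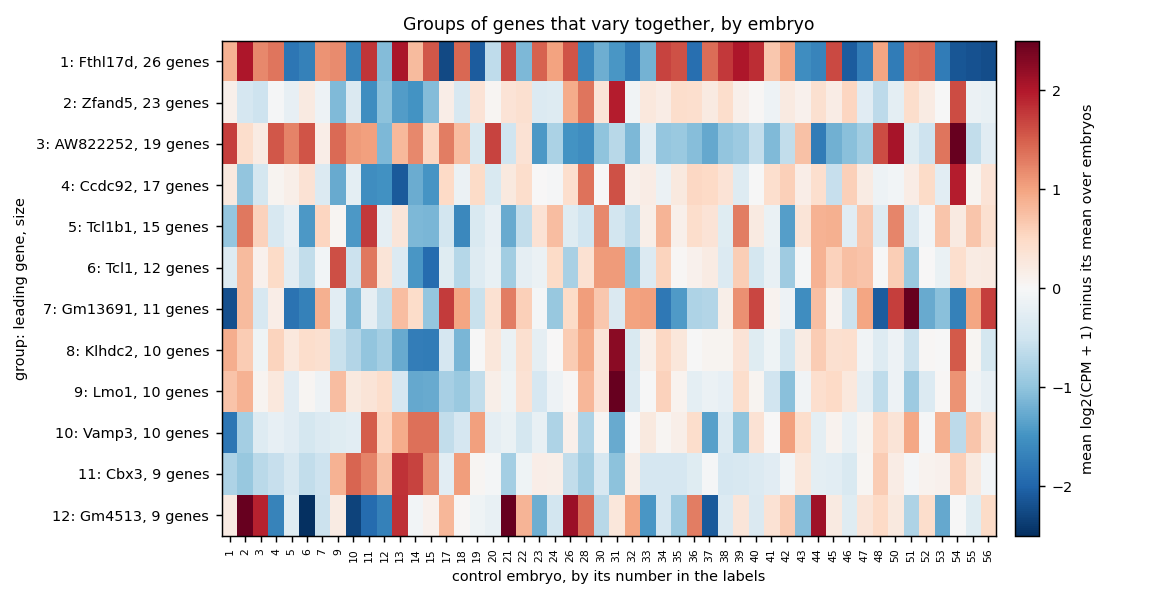
Mean log2(CPM + 1) of each of 12 gene groups (rows), less its mean over embryos, in the 50 control embryos in the order of their numbers. Group 1 splits the embryos into high and low, embryos 31 and 54 stand high in groups 2, 4, 8 and 9, and numbers 9 to 15 are all high in group 11.

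The largest group, group 1 of the heat map, was a group of the X chromosome. Of its 26 genes 25 are X-linked, and their mean pairwise rho was 0.625. It held 4 genes of the Fthl17 family of ferritin-like proteins, which are known for expression from the paternal X in early female embryos, with Pramel3, Gm5128, Gm7903, Gm15023 and AV320801 from a cluster between 135.2 and 135.5 Mb, the kinase gene Pim2, Yy2, Bex1, Sat1, Bcap31, Atp6ap2 and Gla. The exception by position was Rpl10-ps1, a pseudogene on chromosome 2 of the X-linked Rpl10, whose reads cannot be told apart with certainty from those of its parent. The promoters of Pramel3 and Pim2 are shown because these are genes of the group with no overlap between the embryos described next.

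The letters CCAAT, or ATTGG on the other strand, are in capitals. Each run is the 250 bases before the RefSeq start on build GRCm38.p6, plus strand, at chrX:135302066-135302315 and chrX:7878056-7878305.

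Pramel3: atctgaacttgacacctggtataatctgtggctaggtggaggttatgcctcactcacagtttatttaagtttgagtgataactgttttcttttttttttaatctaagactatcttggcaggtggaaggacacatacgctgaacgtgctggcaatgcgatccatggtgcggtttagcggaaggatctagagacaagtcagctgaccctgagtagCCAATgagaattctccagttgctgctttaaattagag

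Pim2: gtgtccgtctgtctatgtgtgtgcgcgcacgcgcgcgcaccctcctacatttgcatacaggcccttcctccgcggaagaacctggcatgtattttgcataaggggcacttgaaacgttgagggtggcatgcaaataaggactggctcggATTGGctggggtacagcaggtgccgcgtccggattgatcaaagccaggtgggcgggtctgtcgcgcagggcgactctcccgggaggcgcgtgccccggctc

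Of 25 promoters found in RefSeq for the X group, 17 held CCAAT on either strand, against 34.5% of 27025 mouse promoters of this length. Several of the genes belong to one family, and the letters were searched with the groups known, so the share is a description.

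Embryos divided by their Y-linked transcripts. The summed level of Eif2s3y, Usp9y, Zfy1, Zfy2 and Ddx3y was 21.4, 48.9 and 91.3 CPM (lowest, median, highest) in 23 embryos and 0, 0.120 and 0.751 CPM in the other 27. No embryo lay between. Kdm5d (502 to 1944 CPM) and Gm21244 are annotated on Y but were present in all 50 embryos, and Uty had 10.7 to 80.2 CPM in the 23 and 4.84 to 14.7 CPM in the 27. The total count was alike (median 5268665 and 5738750), as was the number of genes detected after thinning to equal depth (median 15554 and 15505).

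**Figure D5:**
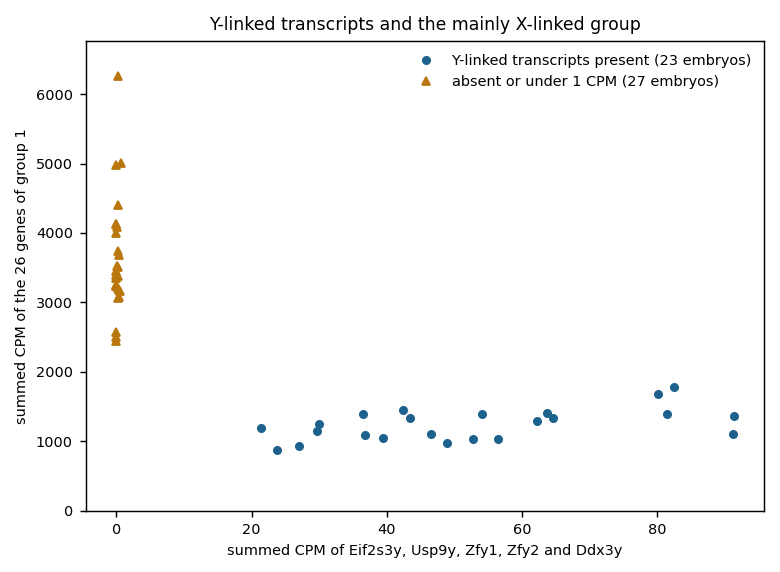
Summed CPM of the 26 genes of group 1 against summed CPM of 5 Y-linked genes, 1 point per embryo. The 27 embryos without Y-linked transcripts lie between 2447 and 6268 CPM and the 23 with them between 866 and 1775 CPM, with no overlap.

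The X group followed this division without overlap, at a summed 866, 1242 and 1775 CPM in the 23 embryos and 2447, 3399 and 6268 CPM in the 27. Pramel3 had 0 to 3.04 CPM with Y-linked transcripts and 4.95 to 214 CPM without. Pim2 had 3.503 to 21.98 CPM against 22.17 to 119 CPM. Rlim, the X-linked ubiquitin ligase that acts in X inactivation and lies outside the group, had 329 to 517 CPM against 563 to 951 CPM. These were the 3 genes, all X-linked, of 8534 (0.0352%) whose values in the 27 embryos were all above those in the 23. None of the 8534 was the other way, but the limit of 10 CPM left out Eif2s3y and Usp9y (means 8.91 and 6.50 CPM). These genes, which also made the division, had 6.45 to 44.4 and 2.16 to 29.6 CPM in the 23, against at most 0.501 and 0.182 CPM. Pramel3, with a mean of 0.189 CPM in the 23 and 104 CPM in the 27, passed that limit only through the 27.

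The whole chromosome was higher, not only the group. X-linked genes took 3.34 ± 0.214% of the counts in the 27 embryos and 2.03 ± 0.110% in the 23 (SD). The ratio of means, without over with Y-linked transcripts, had a median of 1.64 over 266 X-linked genes (quartiles 1.18 and 1.95) and of 0.967 over 8265 autosomal genes, and 234 of the 266 were higher without. Leaving out the genes of the group, 241 X-linked genes still had a median ratio of 1.58. A mean at least 2-fold higher without Y-linked transcripts was seen for 68 of 8534 genes (0.797%), of which 64 are X-linked, and at least 2-fold lower for 10 (0.117%), of which 0 are X-linked. Genes low in the 23 embryos could pass the limit of 10 CPM through the 27 alone, and Eif2s3y and Usp9y, under it, are missing from the 10. Since the division was read from the same libraries, no test was run on it.

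X-linked genes were not raised alike. Prps1 had 1233 to 3425 CPM with and 2657 to 5786 CPM without Y-linked transcripts, a ratio of 2.09. Rpl39 had a ratio of 2.35, Hprt 1.67 and Rlim 1.76. Genes with a partner on Y ranged widely, with 1.91 for Eif2s3x, 1.24 for Kdm6a, 1.22 for Ddx3x and 1.01 for Usp9x. Of the autosomal genes at 2-fold or more, Rpl10-ps1 and Gm9797 had ratios of 3.04 and 3.498, and Gm11914 and Olfr373 had 2.65 and 2.15.

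A pair of groups held several genes known from the oocyte, 6 of 15 and 5 of 12 by the written oocyte and maternal lists. Those lists have 11, 9, 12, 25 and 45 genes among all 8534. The first, group 5 with 15 genes, held the 5 genes Tcl1b1 to Tcl1b5 and Pramel51 from chromosome 12, Obox1, Obox2 and Obox5 from chromosome 7, Rfpl4, Oosp3 and E330034G19Rik, with a mean rho of 0.709. The Tcl1b genes are oocyte relatives of Tcl1, and Oosp3 encodes a secreted oocyte protein. The other, group 6 with 12 genes, held Tcl1, Btg4, Bcl2l10, an oocyte member of the BCL2 family, Tgfb2, Pkd2l2, E2f5 and the maternal-complex gene Nlrp4f, with a mean rho of 0.633. Genes of one group and of the other correlated less closely, at a mean rho of 0.497.

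Their levels spanned about 9-fold between embryos. The summed level of the Tcl1b and Obox group was 809, 2317 and 7472 CPM (lowest, median, highest), and that of the Tcl1 and Btg4 group 1100, 3856 and 10373 CPM. Obox5 alone had 60.3, 246 and 990 CPM, and Tcl1b1 had 122, 391 and 1505 CPM. The first group correlated with the number of genes detected (rho 0.395) and with the mitochondrial share (0.287). The other had 0.294 and -0.175, and neither correlated with total count above 0.162. In residuals on total count and detected genes, all 15 genes of the first group were found together again. Of the Tcl1 and Btg4 group only 4 of 12 were, so that group as a set depends on this setting.

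The groups ran against genes of protein synthesis and of the proteasome. The median rho of the Tcl1 and Btg4 group was -0.318 to ribosomal protein genes, -0.279 to proteasome genes, -0.267 to translation initiation genes and -0.263 to ribosome biogenesis genes, and 0.232 to other oocyte transcripts. The first group had -0.183, -0.223, -0.247 and -0.241 to the same 4 lists, 0.248 to other oocyte transcripts and 0.298 to 2-cell-stage genes. These relations were not particular to the pair. Group 9, described below, had -0.199, -0.197, -0.203 and -0.212 to the 4 lists, and group 7, of predicted genes, had 0.314 to 2-cell-stage genes. Btg4 itself, picked after its values were seen, had a rho of at least 0.5 to 313 genes and of -0.5 or less to 185. Over all pairs of the 8534 genes, 0.647% were at 0.5 or more and 0.320% at -0.5 or less. The most alike were Smim14 (0.79), Nrg4 (0.77), Tcl1 (0.76) and Wee2, the oocyte form of the WEE1 kinase (0.76). The most opposite were Cct5, a subunit of the CCT chaperonin (-0.70), Abce1, which recycles ribosomes (-0.68), Nip7 (-0.67) and Utp15 (-0.65), which act in ribosome assembly.

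Promoters of members of these groups are shown because the genes rise and fall together although they lie on different chromosomes. The letters CANNTG, the E-box that oocyte factors such as Figla are known to bind, are in capitals. The runs are the 250 bases before the RefSeq start on GRCm38.p6, plus strand, at chr12:105190795-105191044, chr7:15750120-15750369 and chr9:51115751-51116000.

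Tcl1b3: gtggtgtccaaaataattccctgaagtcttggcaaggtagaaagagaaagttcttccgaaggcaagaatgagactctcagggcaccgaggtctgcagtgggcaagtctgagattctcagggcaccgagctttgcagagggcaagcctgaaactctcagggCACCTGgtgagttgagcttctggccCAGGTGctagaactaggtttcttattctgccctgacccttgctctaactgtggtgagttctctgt

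Obox5: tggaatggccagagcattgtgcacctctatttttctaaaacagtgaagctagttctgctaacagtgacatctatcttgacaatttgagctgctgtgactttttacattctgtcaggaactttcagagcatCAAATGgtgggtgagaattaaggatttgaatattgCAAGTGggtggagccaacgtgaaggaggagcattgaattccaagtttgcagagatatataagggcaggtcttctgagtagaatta

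Btg4: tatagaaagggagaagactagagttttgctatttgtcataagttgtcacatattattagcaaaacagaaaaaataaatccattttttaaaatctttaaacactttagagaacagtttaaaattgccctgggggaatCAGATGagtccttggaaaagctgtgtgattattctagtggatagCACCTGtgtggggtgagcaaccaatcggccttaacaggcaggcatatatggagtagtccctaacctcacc

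CANNTG, searched on both strands and allowed to overlap other motifs, was in 10 of 10 promoters found for the Tcl1b and Obox group and in 7 of 7 for the Tcl1 and Btg4 group. It is a common motif, present in 66.04% of all 27025 promoters. GGGCGG, a GC-rich motif of many housekeeping promoters, was in 0 of 10 promoters of the first group and 1 of 7 of the other, against 32.9% of all. The Tcl1b genes are members of one family, and the motifs were picked with the groups known.

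Group 3 had the highest internal correlation, a mean rho of 0.829 over 19 genes, which lie on many chromosomes. It held Pam, Lrtm1, Pecam1, an adhesion molecule of endothelium, Gabra2, a neurotransmitter receptor subunit, Nfia, Pax8, Dock10, Chpt1, Zfp101, Zfp260, Olfr907, 6 predicted genes and the X-linked AW822252, with mt-Atp6. Pam and Lrtm1 had a rho of 0.97. The other 18 genes without mt-Atp6, which alone had a median of 1838 CPM, summed to 432, 1043 and 7459 CPM (lowest, median, highest), and the highest was embryo 54. The score of all 19 genes correlated weakly with total count (rho -0.288), detected genes (-0.317) and the mitochondrial share (0.235).

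This group, like several below, varied with the numbers that the labels give to the embryos. The labels do not say what a number stands for. In 5 blocks of 10 embryos in the order of their numbers, the median summed level of these 18 genes was 2426, 1710, 702, 707 and 1095 CPM. Pecam1 had block medians of 577, 353, 177, 182 and 210 CPM, and Pam 169, 137, 19.6, 30.7 and 119 CPM. The first 2 blocks were thus the highest for these genes. With values centred within the blocks, all 19 genes were again found in 1 group.

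The clearest relation to the embryo number was in group 11, of 9 genes, with a mean rho of 0.631. It held Cbx3, Ccdc6, Gtf2a1, a general transcription factor, Paip1, which binds the poly(A)-binding protein, Wtap, a partner of the m6A methyltransferase, Arglu1, Spry2, Golt1b and Cdv3. An embryo and the next in number had a correlation of 0.655 in the score of this group, its mean log2(CPM + 1), and of 0.732 in log2(CPM + 1) of Ccdc6. Over all 8534 genes the correlation of log2(CPM + 1) between neighbours had a median of 0.0508 and a 95th percentile of 0.335, and 85 genes (0.996%) reached 0.5. The scores of the Klhdc2, Zfand5, Pam and Ccdc92 groups had 0.466, 0.446, 0.439 and 0.388; a score averages many genes, so it is not on the same footing as a single gene. Ccdc6 had block medians of 1432, 2019, 1226, 1349 and 1882 CPM and Cbx3 of 85.3, 185, 87.6, 107 and 137 CPM, so blocks 2 and 5 were high. Centred within blocks, 8 of the 9 genes were again in 1 group. The blocks cut the run of high embryos, 9 to 15, between embryos 11 and 12, so centring does not remove that run.

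A further 4 groups were high together in a pair of embryos. They were group 2, of 23 genes, led by Zfand5, a proteasome-binding zinc-finger protein, with the kinases Map2k2 and Plk3 and the glutathione gene Gclm, group 4, of 17, led by Ccdc92 with Gsr, Taf4b and Rps2, group 8, of 10, led by Klhdc2 with the GTPase Rac1, and group 9, of 10, led by Lmo1 with Mff, Dut and Hpf1. The first had a summed level of 1478, 5146 and 18546 CPM. Embryos 31 and 54 held the highest and the second-highest place in each of the 4. In the Lmo1 group embryo 31 had 10893 CPM, against a median of 2123. Lowest in the first group was embryo 11, with 1478 CPM.

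Without embryos 31 and 54 the members still correlated, at a mean rho of 0.550 in place of 0.599, 0.513 in place of 0.554, 0.632 in place of 0.671 and 0.622 in place of 0.662. Many then no longer ranked among the 500 most variable genes: 9 of 23, 4 of 17, 0 of 10 and 3 of 10 remained there. As groups of 8 or more they were therefore mostly not found again, with 8 of 23, 3 of 17, 0 of 10 and 0 of 10 members together. The rank of these genes among the most variable thus rests on embryos 31 and 54, while their correlation with one another was little changed without them. The other 8 groups kept most of their members without these embryos, from 9 of 12 in the Tcl1 and Btg4 group to all 15 in the Tcl1b and Obox group.

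These groups contrasted with the Cbx3 group. The Klhdc2 group and the Cbx3 group had a mean rho of -0.484 and the Zfand5 group and the Cbx3 group -0.397, and without embryos 31 and 54 the values were -0.512 and -0.419. Both sides varied with the embryo number, with block 2 the lowest for the Klhdc2 group (median summed level 880 CPM) and the highest for the Cbx3 group (4598 CPM). Centred within blocks the values were -0.496 and -0.475. Embryos 9 to 15 were high in the Cbx3 group, with scores less their mean of 0.734 to 1.81. They were low in the Zfand5 group (-1.55 to -0.368) and the Klhdc2 group (-1.75 to -0.562). The blocks cut this run between embryos 11 and 12, so centring does not remove it, and the contrast without these embryos was not tested. The Zfand5, Ccdc92, Klhdc2 and Lmo1 groups correlated inversely with the mitochondrial share, at rho -0.328, -0.350, -0.287 and -0.337. Group 10, of 10 genes led by Vamp3, a vesicle SNARE, with Xaf1, Loxl2 and Trpm2, correlated with it at 0.362. Without the 5 embryos of lowest total 0 of the 10 genes of group 10 were found together. None of these groups correlated with total count beyond 0.0732 in size. Their relation to RNA handling, amplification or the embryos' age within the stage was not tested.

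The last pair of groups consisted of predicted genes, some of them copies with identical values. Group 12 held 9 genes from chromosome 7 between 20260451 and 23278900. Its leading pair, Gm4513 and Gm4565, had identical values in every embryo (14.1, 86.7 and 528 CPM), and their promoters match at 249 of 250 positions. Of 6 promoters found in this group 4 held the letters TCAAGGNCA, the known binding motif of Nr5a2, against 1.36% of all promoters, and 4 held TAATCC, a homeobox motif, against 6.38%. The promoters of Gm4513 and Gm4565 are nearly the same sequence, so they do not count separately. The other pairs among the 6 matched at 56 to 75 of 250 positions when compared base by base without alignment. That comparison cannot see a stretch shared at different positions, so whether the other promoters count separately was not tested. Nor was it tested whether both motifs belong to 1 shared stretch, so their shares may not be independent. The letters were picked with the groups known. One of them is printed because it carries both, in capitals, at chr7:20599022-20599271 on the minus strand.

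Gm4513: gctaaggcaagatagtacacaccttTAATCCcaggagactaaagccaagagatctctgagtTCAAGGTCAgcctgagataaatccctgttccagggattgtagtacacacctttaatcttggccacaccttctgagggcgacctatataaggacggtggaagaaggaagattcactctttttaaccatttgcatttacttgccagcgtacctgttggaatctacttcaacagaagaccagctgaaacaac

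The other, group 7, held 11 predicted genes on chromosomes 2, 8 and 10, of which 5 on chromosome 2 had the same values in every embryo. Gm9040 and Gm9044 on chromosome 10 also shared their mean and SD (39.2 ± 39.1 CPM), lowest, median and highest value. Genes with identical values cannot be told apart by the counting, so for these the data cannot show which copy varied. Scaling by TMM in place of total counts returned all 11 genes of this group together and 0 of the 9 on chromosome 7 in any group.

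Some genes were on in part of the embryos and off in others. At 5 CPM or more on average, 140 of 10315 genes (1.36%) were under 0.5 CPM in at least 10 embryos and over 5 CPM in at least 10. Of the 140, 32 are X-linked, which is 9.12% of 351 X-linked genes against 1.084% of the others. Predicted genes or pseudogenes were 72 of the 140. Their share over the 10315 was not counted, and it was 6.91% over the 8534 genes at 10 CPM or more. Tex101, a germ-cell surface protein, was under 0.5 CPM in 10 embryos, over 5 CPM in 37 and reached 170 CPM. Calhm3, a calcium homeostasis channel, was under 0.5 CPM in 19 embryos and over 5 CPM in another 19. Ripk3, a necroptosis kinase, was under 0.5 CPM in 14 and over 5 CPM in 24, with a highest value of 70.9 CPM. At 0.5 CPM an embryo of median depth holds under 3 counts, so off means not detected at this depth.

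The main axis of the 50 embryos was weak. The first principal component of log2(CPM + 1) held 9.38% of the variance, the next 8.74% and 6.32%. Of the 100 genes with the highest loadings on the first, 39 are X-linked, led by Gm5128, Gm7903, AV320801 and Pramel3, against 1 of the 100 lowest, where Acot3, Fbxo31, Tent5b, Ccdc92 and Zbed3 stood. Without genes of chromosomes X and Y the first component held 9.28%.

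Of 10 relations among total count, detected genes, the share of each embryo's own 100 leading genes, the mitochondrial share and the first component, 3 passed the threshold, by two-sided permutation tests with Benjamini-Hochberg adjustment. The share of the 100 leading genes correlated with the mitochondrial share (Pearson r 0.737, adjusted permutation p 9.9999e-05; Spearman rho 0.741, adjusted permutation p 3.3333e-05; n = 50). Since mitochondrial genes are among the leading genes, these shares overlap in part. The first component was computed from the same values, with Gm10925 and Gm28661 of the nuclear copy of mitochondrial DNA among its high loadings, so its relations to both shares are not between independent measures. The first component correlated with the share of leading genes (r 0.572, rho 0.636) and with the mitochondrial share (r 0.598, rho 0.722), with an adjusted permutation p of 0.000133 for both r values. Without the 2 embryos farthest from the median of the first measure the 3 values of r were 0.699, 0.509 and 0.588. Taken apart, the 23 embryos with and the 27 without Y-linked transcripts gave 0.824 and 0.6003, 0.602 and 0.492, and 0.758 and 0.526. Total count was related to none of the 4 others (adjusted permutation p of 0.867 for each r).

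The written gene pairs asked whether known partners varied together. Of 36 pairs 34 could be tested, by r of log2(CPM + 1) over 50 embryos with two-sided permutation tests adjusted over the 34, and 15 passed, 14 positive and 1 negative. The smallest p that the permutations allow is 1e-05. Dppa2 and Dppa4, which act as a heterodimer, had r 0.634 (rho 0.599; permutation p 1e-05 and 2e-05, adjusted 6.8e-05 and 0.000136), and 0.557 without the 2 embryos farthest from the median of Dppa2. Zscan4d varied with Tcstv3 (r 0.613, rho 0.557; adjusted permutation p 6.8e-05 and 0.000136), with Zfp352 (0.495, 0.501; 0.00142 and 0.00159) and with Tmem92 (0.409, 0.373; 0.00873 and 0.0215), and without the 2 farthest embryos r was 0.555, 0.611 and 0.360. Dppa2 and Dppa4 had r 0.738 in the 23 embryos with and 0.544 in the 27 without Y-linked transcripts, and Zscan4d and Tcstv3 0.592 and 0.581. With values centred within the blocks of embryo numbers, r was 0.612 for Dppa2 and Dppa4 and 0.620 for Zscan4d and Tcstv3. The 2-cell-stage list had a median rho of 0.283 within it against 0.0105 over all genes. This was not particular to that list, since cytosolic ribosomal protein genes had 0.398 and mitochondrially encoded genes 0.856.

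Among other pairs, the oocyte chromatin genes H1f8 and Npm2 had r 0.479 (rho 0.441; adjusted permutation p 0.00155 and 0.00527), and 0.380 without the 2 farthest embryos. The decay factors Btg4 and Cnot6l had r 0.355 (rho 0.313; 0.0263 and 0.0635), so that only r passed, and r was 0.406 without the 2 farthest. Fos and Jun, low in these embryos at 2.97 ± 3.82 and 1.98 ± 3.33 CPM, had r 0.446 (rho 0.471; 0.00401 and 0.00287), and 0.398 without the 2 farthest. The negative pair was Ccnb1 and Ccna2, with r -0.446 (adjusted permutation p 0.00461) but rho -0.254 (adjusted permutation p 0.144), and r was -0.268 without the 2 farthest embryos, so the value rests on few embryos. For the pairs of Y-linked genes only values within the 23 embryos are given: Eif2s3y and Ddx3y had r 0.490 (permutation p 0.0177) and 0.276 without the 2 farthest, and Eif2s3y and Uty r 0.340 (permutation p 0.114).

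Nr5a2 showed no relation that passed the threshold with any of its written partners. Its r was -0.0451 with Zscan4d, -0.193 with Klf17, 0.186 with Dppa2 and -0.0187 with Gdf9 (adjusted permutation p 0.779, 0.270, 0.274 and 0.898; rho -0.00418, -0.149, 0.198 and 0.0179, adjusted permutation p 0.977, 0.394, 0.242 and 0.929). Among all 8534 genes only 2 had a rho of at least 0.5 with Nr5a2, Eif2d (0.52) and Med31 (0.50), and only Wdr82 had -0.5 or less (-0.59). Over all pairs of the 8534 genes, 0.647% were at 0.5 or more and 0.320% at -0.5 or less. Btg4 and Tcl1 had 313 and 344 genes at 0.5 or more, but they are more variable genes that lead a group. Nr5a2 lay on the steady side of the trend. Over these untreated embryos the spread of Nr5a2 mRNA, 52.9 to 196 CPM, thus went with that of few genes. Zp2 and Zp3, which build the same egg coat, had r 0.0835, Rps3 and Rpl3 0.164, and mt-Co1 and the nuclear Cox4i1 -0.0999, none past the threshold. Rps3 and Rpl3 do not stand for their list, in which the median rho over all pairs was 0.398.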

How the data were processed

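Smart-seq2 libraries of single embryos were deposited as estimated counts per transcript, which the authors made with kallisto 0.46.1 after Trim Galore 0.6.2, per the submitters' processing notes, which also name the build mm10. Of the deposited values 31% are not whole. Counts of 119358 entries were summed per gene name to 35973 genes and divided by the total on named genes (CPM). The 2164 entries without a gene name held 0.855 to 1.17% of counts and stayed out. Length-scaled levels and positions used GENCODE M21 (mm10), and promoters RefSeq (GRCm38.p6). The trend of CV was a lowess fit (fraction 0.3) over genes with a mean of at least 10 CPM. No count test was run: the controls are 1 labelled group, and the division by Y-linked transcripts was read from the same libraries. Gene pairs and library measures were tested with 100000 permutations on log2(CPM + 1). Python 3.11.15, numpy 2.4.6, pandas 2.3.3, scipy 1.17.1 and statsmodels 0.14.6 were used, with edgeR 4.0.16 and DESeq2 1.42.0 for scaling factors only, and the code was tested on simulated data.

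The rule for named genes took the 25 highest in mean CPM and in level per length, the 25 most and 25 least variable with a mean of at least 20 CPM, the 8 leading genes of each group, the 15 highest and 15 lowest loadings of the first component, up to 20 on/off genes, the most abundant, most variable and least variable member of each list, the genes of the pairs and Nr5a2. Other list members, group members and X-linked genes named were chosen after their values were seen. The members, gene lists and pairs were chosen with earlier results of these data known. Nothing in the labels says whether embryos shared a litter. The permutation tests treat the embryos as independent of one another, although neighbours in number were alike in some genes. Their p-values therefore bear on these embryos alone. In whole embryos, fewer RNA molecules of a gene and a larger amount of all others cannot be told apart in CPM.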

Additional observations from a re-analysis of the deposited data

Results flagged for a closer look

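Entries of the count table that are not annotated transcripts also took reads and enter no comparison above. B1_SINE, a repeat element, had a median of 46.3 CPM (7.92 to 84.0) and B2_SINE 56.9 CPM (11.8 to 278), each with more than 3 counts in all 50 embryos. An entry under the gene identifier of Nr5a2, ENSMUSG00000026398.14, had a median of 38.5 CPM (9.85 to 83.6) in addition to the 105 CPM of the named Nr5a2 transcripts. The labels do not say what sequence it covers, and it was not added to Nr5a2. Of the entries of a green fluorescent protein, which these embryos are not said to carry, one was above 3 counts in 3 embryos and the other in 1, with at most 17.9 and 18.1 counts.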

How the results depend on the processing

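Most results kept their size. Other settings moved these: the share of the 100 leading genes of each embryo was 30.1% per length against 24.8% by counts. With 4018 genes tested at a mean of at least 50 CPM in place of 8534, 359 were more variable and 133 less, and with 14134 tested at 1 CPM 724 were less variable. The less variable genes numbered 477 with a robust CV, under which 425 of 698 more variable and 177 of 268 less variable genes were called again. Genes in groups numbered 85 and 370 with 250 and 1000 genes, and 102 and 269 at linkage limits of 0.4 and 0.6. On/off genes numbered 91 at 0.2 and 10 CPM. Pairs past the threshold were 9 and 5 in the embryos with and without Y-linked transcripts alone, where fewer embryos enter. The median CV over trend changed side for the DNA methylation and Tet list (0.994 with TMM) and for the mRNA storage and decay list (0.997 at 1 CPM). The cause of these changes was not tested. Centring within blocks of embryo numbers, added after seeing the data as were the settings that leave out embryos, left 16 pairs. Leaving out the 5 embryos of lowest total or embryos 31 and 54 kept all counts within 1.5 times, although the members changed. Without embryos 31 and 54 they changed as described. Without the 5 embryos of lowest total 9 groups were found in place of 12, and 0 of the 10 genes of the Vamp3 group were found together. The limit of 3 median absolute deviations left out no embryo. No paired analysis was possible because the controls are 1 labelled group in which each number occurs once, and the embryos divided by Y-linked transcripts share no numbers.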
